A study of Mus musculus with 21 samples.

Results

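The 10 genes described here encode the enzymes of de novo lipogenesis and one of their transcription factors: *Acly*, *Acaca*, *Acacb*, *Fasn*, *Scd1*, *Scd2*, *Elovl5*, *Elovl6*, *Me1* and *Srebf1*. They were taken by symbol from the 40853 genes of the count table, and all 10 were among the 16129 genes that passed the filter on low counts. The choice was made with results of these libraries known. *Acly* and *Elovl6* were chosen by their expression in these libraries, as transcripts the study lists as higher in the Active group than in both other groups, and the other 8 were added as genes of the same pathway. Differences between groups in these genes are therefore a description and not a test.

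RNA was sequenced from the whole medial belly of the gastrocnemius, a mixed-fiber calf muscle, of female C57BL/6NJ mice, with 7 mice in each of 3 groups and 1 library per mouse. Training began at 10 weeks of age, and the Active group ran on a treadmill for 6 weeks, in 5 sessions a week of up to 40 min, a slow warm-up included, with the main run at about 70% of maximal speed. The Activity Reduction group did the same for 4 weeks and then stayed inactive for 2 weeks, whereas the Inactive group did not train. Mice of every group took the maximal running tests, and tissue was collected 48 to 72 h after the last of these tests and after a fast given as 5 to 6 h in the series record and as 4 to 6 h in the methods. The study asked which transcripts in muscle differ after activity is reduced.

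De novo lipogenesis makes fatty acids from carbohydrate carbon, and it is most active in liver and adipose tissue and low in skeletal muscle. Citrate leaves the mitochondria, ATP citrate lyase (*Acly*) splits it to acetyl-CoA, acetyl-CoA carboxylase (*Acaca*) makes malonyl-CoA, and fatty acid synthase (*Fasn*) joins these units into palmitate with NADPH from sources such as malic enzyme (*Me1*). Elongases (*Elovl5*, *Elovl6*) and stearoyl-CoA desaturases (*Scd1*, *Scd2*) then modify the chain, and *Srebf1* encodes SREBP-1, which activates transcription of many of these genes and is itself induced by insulin and feeding. The mitochondrial carboxylase *Acacb* differs in role, because in muscle its malonyl-CoA mainly restrains fatty acid entry into mitochondria.

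Promoter sequence is shown for *Acly* and *Elovl6*, which DESeq2 called between groups, for *Fasn*, which followed the mean of the members most closely, and for the regulator *Srebf1*. Each run holds the 250 bases before an annotated start of transcription, written 5′ to 3′ on the strand of the gene. The runs came from RefSeq's mouse promoters (GRCm38.p6), which held 8 of the 10 genes with 11 start sites in all, and each was placed on GRCm39 by its exact match. Capitals mark a CCAAT box (CCAAT, or ATTGG where it lies on the other strand) or a GC box (GGGCGG, or CCGCCC on the other strand).
Acly, chr11:100418827-100419076, minus strand: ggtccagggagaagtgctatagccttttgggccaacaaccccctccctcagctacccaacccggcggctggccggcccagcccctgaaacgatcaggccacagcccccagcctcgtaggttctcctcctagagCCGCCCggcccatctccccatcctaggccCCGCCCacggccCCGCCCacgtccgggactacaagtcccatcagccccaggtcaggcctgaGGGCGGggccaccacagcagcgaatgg
Fasn, chr11:120715374-120715623, minus strand: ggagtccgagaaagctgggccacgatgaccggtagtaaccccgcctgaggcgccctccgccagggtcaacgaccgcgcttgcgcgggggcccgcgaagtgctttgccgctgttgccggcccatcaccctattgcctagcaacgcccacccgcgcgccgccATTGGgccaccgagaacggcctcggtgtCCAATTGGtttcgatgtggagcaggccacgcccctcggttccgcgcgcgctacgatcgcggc
Elovl6, chr3:129325785-129326034, plus strand: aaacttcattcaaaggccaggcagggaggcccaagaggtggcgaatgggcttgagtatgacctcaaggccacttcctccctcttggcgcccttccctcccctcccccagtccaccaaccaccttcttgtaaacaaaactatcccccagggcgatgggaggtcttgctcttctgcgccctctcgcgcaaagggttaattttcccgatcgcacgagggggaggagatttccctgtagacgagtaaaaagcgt
Srebf1, the third annotated start, chr11:60101298-60101547, minus strand: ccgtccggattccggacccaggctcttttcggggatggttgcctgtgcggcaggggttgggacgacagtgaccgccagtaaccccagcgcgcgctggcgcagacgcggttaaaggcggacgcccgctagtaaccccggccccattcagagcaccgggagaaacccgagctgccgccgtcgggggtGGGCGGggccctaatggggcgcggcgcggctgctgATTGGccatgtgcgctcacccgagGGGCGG
The *Acly* run held 4 GC boxes, the *Fasn* run held 3 CCAAT boxes, of which 2 overlap on opposite strands, and the *Elovl6* run held neither motif. At the third start of *Srebf1* there were 2 GC boxes and 1 CCAAT box. Over the 11 member start sites, 6 held a CCAAT box and 4 a GC box, against 33.8% and 32.7% of the 32851 mouse promoters of the same length. The E-box CACGTG stood in 1 of the 11, that of *Elovl5*, and in 6.02% of all promoters. The core of the sterol regulatory element, searched as TCACNCCAC on both strands, was in 0 of the 11 and in 1.05% of all promoters. A match of letters describes the sequence and is not a measured binding site.

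The genes lie on 5 mouse chromosomes (GRCm39). On chromosome 11, *Srebf1* spans 60089913 to 60113407, *Acaca* 84020476 to 84292477, *Acly* 100367165 to 100440756 and *Fasn* 120696672 to 120715995. *Scd2* spans 44281613 to 44295303 and *Scd1* 44382894 to 44399154 on chromosome 19. *Elovl5* spans 77818113 to 77891802 and *Me1* 86462646 to 86578104 on chromosome 9, *Acacb* spans 114284307 to 114388822 on chromosome 5, and *Elovl6* spans 129326004 to 129432144 on chromosome 3. All 10 are annotated as protein coding. Reads of *Acaca* are uncertain, since 42.8% of the 100-base stretches of its transcript also occur in transcripts of other genes, with the pseudogene Gm5182 sharing the most. For *Me1* the share was 11.4%, with Gm7049 sharing the most. Exons of *Me1* also share 35.0% of their length with *Rwdd2a* on the opposite strand, to which between 2 and 20 reads per library were assigned.

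The libraries held between 38482455 and 59785132 reads counted on genes. The smallest count of any member was 48 reads, for *Elovl6*, and every other member had at least 335 reads in each library. Expression is given as CPM, counts scaled to a common library total with edgeR's TMM factors, and where genes are compared with each other, as CPM per kilobase of the canonical transcript. The 8 muscle fiber markers checked summed to between 149481 and 191540 CPM. Transcripts of liver genes set some libraries apart. *Alb*, which encodes albumin, is given here as CPM without TMM scaling, as is its cut at 250 CPM. It was between 365 and 1155 CPM in 8 libraries, namely Active replicates 1 to 5, Activity Reduction replicates 1 and 2, and Inactive replicate 1. It was between 71.1 and 161 CPM in the remaining 13. In the order of the deposited samples the 8 libraries come first and the 13 after them. Albumin level and sample order can therefore not be told apart, and the labels do not say what the order stands for. In bulk RNA, fewer cells of a type and less RNA per cell cannot be told apart. Because training group and albumin level are unevenly mixed, the group differences of members are given for all 21 libraries and again for the 13 with *Alb* under 250 CPM, which held 6 Inactive, 2 Active and 5 Activity Reduction mice.

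Per kilobase of transcript, the members covered a wide range of levels. In the Inactive group, *Me1* (median 56.5 CPM per kb) and *Acacb* (47.9 CPM per kb) stood highest, and their ranges over libraries overlapped, from 48.3 to 58.3 and from 43.2 to 51.6 CPM per kb. *Scd1* followed with a median of 17.6 CPM per kb and then *Srebf1* with 9.16 CPM per kb, also with overlapping ranges. *Acly* (3.63), *Elovl5* (2.85), *Acaca* (2.30), *Scd2* (1.99) and *Fasn* (1.98 CPM per kb) lay close together, and each overlapped its neighbour in this order. *Elovl6* was lowest, at 0.204 CPM per kb, below every library of any other member. The cytosolic carboxylase *Acaca* was thus far below the mitochondrial carboxylase *Acacb*, without overlap between their libraries in any group.

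**Figure D1:**
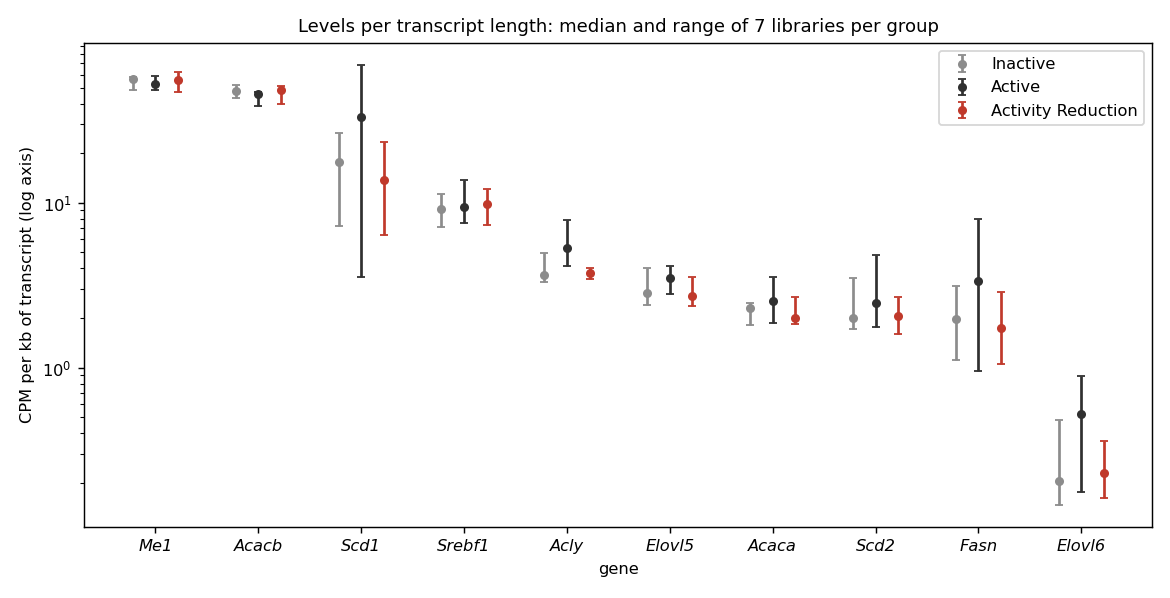
Level of each of the 10 genes in CPM per kilobase of canonical transcript (log axis), by group. Points are medians and bars the lowest and highest of 7 libraries; *Me1* and *Acacb* stand highest and *Elovl6* lowest in each group, and *Scd1* and *Fasn* have long bars in the Active group.

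In the Active group, the mean expression of 8 of the 10 genes was higher than in the Inactive group, and the Activity Reduction group lay between -0.13 and 0.04 log2 units from the Inactive group in all 10. *Elovl6*, *Scd1*, *Fasn* and *Acly* had the largest differences, with Active means between 1.46 and 2.17 times the Inactive means. *Acacb* and *Me1*, the most abundant members, had means slightly lower in the Active group. Within the 13 libraries with fewer albumin transcripts the differences of *Elovl6*, *Scd1*, *Fasn* and *Acly* were smaller.

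*Acly*, which opens the pathway by supplying cytosolic acetyl-CoA, was at 14.7 CPM (lowest), 16.0 (median) and 21.9 (highest) in the Inactive group. The Active mice had 18.2, 23.4 and 34.8 CPM, and the Activity Reduction mice 15.2, 16.6 and 17.7 CPM. Every Activity Reduction library was below every Active library, whereas 4 of the 7 Active libraries were above all Inactive libraries. The log2 fold change was 0.54 (SE 0.12) for Active against Inactive and -0.58 (SE 0.12) for Activity Reduction against Active. No other member, and no other comparison for *Acly*, lacked overlap between groups in all libraries. The share of all genes tested with such a gap was not computed. *Acly* was chosen by this contrast, so the gap is a description.

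*Acaca* and *Fasn*, the committed steps of fatty acid synthesis, behaved alike in direction but not in spread. *Acaca* ranged from 17.2 to 23.4 CPM (median 21.9) in Inactive mice, from 17.7 to 33.9 (median 24.0) in Active mice and from 17.4 to 25.6 (median 19.1) in Activity Reduction mice. *Fasn* ranged from 11.9 to 33.5 CPM (median 21.3), from 10.2 to 86.4 (median 36.1) and from 11.3 to 30.8 (median 18.6) in the same order. The Active group thus held both the lowest *Fasn* library, replicate 6, and the highest, replicate 3. For *Fasn* the log2 fold change was 0.96 (SE 0.345) for Active against Inactive and -1.10 (SE 0.347) for Activity Reduction against Active, and for *Acaca* it was 0.24 (SE 0.119) and -0.30 (SE 0.119).

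*Scd1*, the main desaturase making oleate from stearate, was the most variable member, with 19.3 times as much in the highest as in the lowest library. Its lowest, median and highest libraries had 36.3, 88.4 and 134 CPM among Inactive mice, 17.9, 166 and 346 CPM among Active mice, and 32.1, 69.5 and 118 CPM among Activity Reduction mice. Active replicate 6 was again the lowest and Active replicate 3 the highest of the 21 libraries. The log2 fold change was 1.04 (SE 0.418) for Active against Inactive and -1.13 (SE 0.419) for Activity Reduction against Active. Its paralog *Scd2* was less abundant and less variable, with means of 11.8 ± 3.39, 15.3 ± 6.15 and 11.8 ± 1.97 CPM (SD, n = 7) in the Inactive, Active and Activity Reduction groups. The highest *Scd2* level, 26.1 CPM, was in Active replicate 7 and not in replicate 3.

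*Elovl6*, which lengthens palmitate to stearate, was the least abundant member and had the largest fold change of any member for Active against Inactive. It was at 0.902, 1.25 and 2.96 CPM (lowest, median and highest) in Inactive mice, at 1.08, 3.23 and 5.48 in Active mice and at 0.997, 1.41 and 2.20 in Activity Reduction mice. Of the 7 Active libraries, 4 were above all Inactive libraries, and the highest Inactive library was replicate 1, the Inactive library with much albumin transcript. The log2 fold change was 1.11 (SE 0.29) for Active against Inactive and -1.09 (SE 0.291) for Activity Reduction against Active. *Elovl5*, which elongates polyunsaturated chains, had means of 8.76 ± 1.56, 10.3 ± 1.51 and 8.41 ± 1.43 CPM (SD, n = 7) in the Inactive, Active and Activity Reduction groups, and the groups overlapped.

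*Acacb*, *Me1* and *Srebf1* had the smallest differences. *Acacb* had 430 ± 23.9, 404 ± 26.1 and 427 ± 36.2 CPM (SD, n = 7) in the Inactive, Active and Activity Reduction groups, a log2 fold change of -0.09 (SE 0.053) for Active against Inactive. *Me1* had 231 ± 14.9, 222 ± 15.2 and 230 ± 23.4 CPM in the same order. *Srebf1* had 39.4 ± 5.88, 44.4 ± 9.49 and 40.4 ± 8.15 CPM, and 3 of 7 Active libraries were above all Inactive libraries. The log2 fold change of *Srebf1* was 0.17 (SE 0.134) for Active against Inactive, and it had the opposite sign, -0.04, when the albumin division was a covariate.

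**Figure D2:**
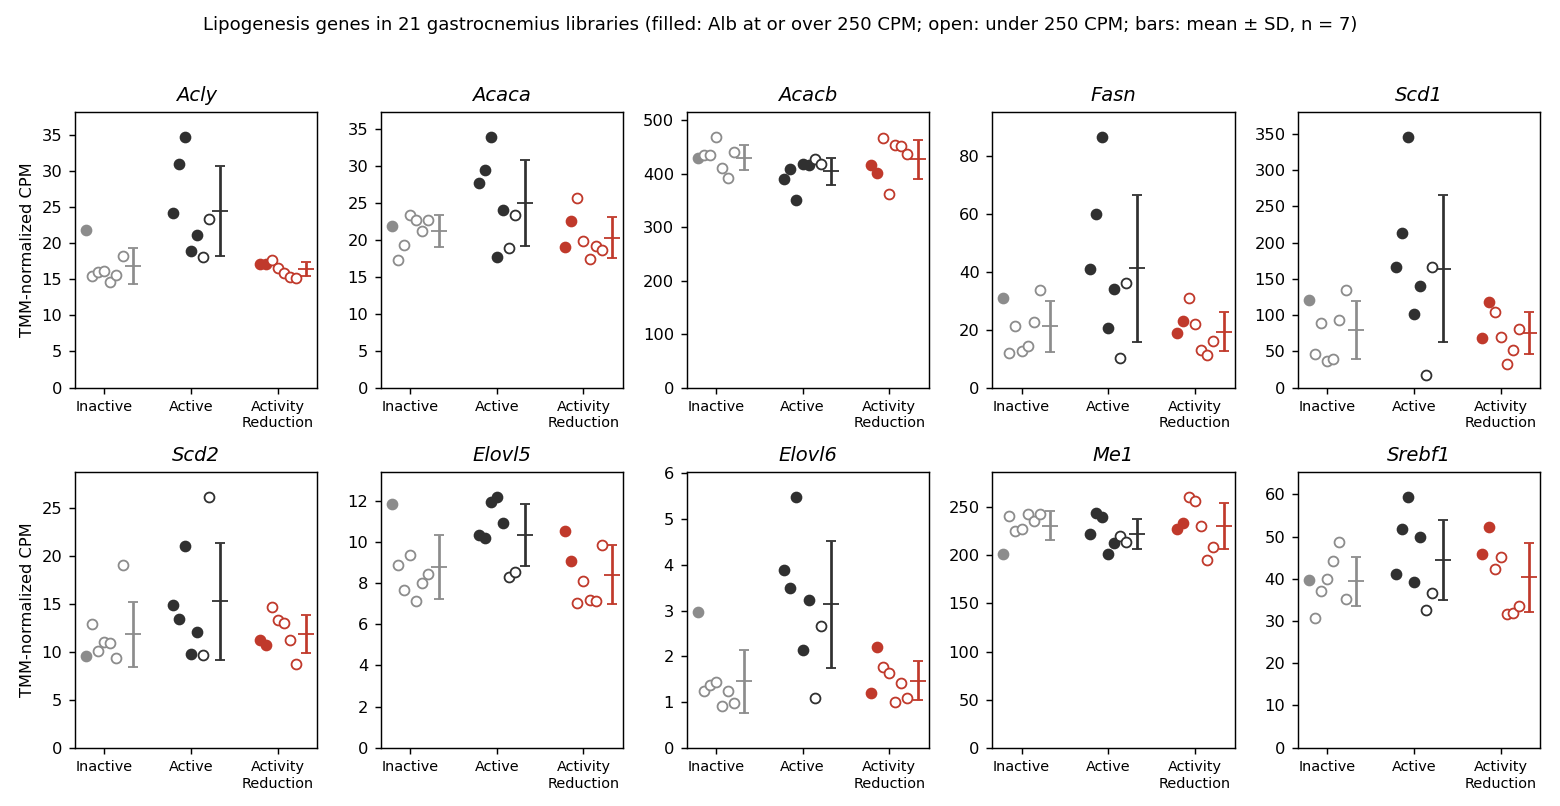
Expression (TMM-normalized CPM, axes from 0) of the 10 genes in each of the 21 libraries, by group. Filled points are libraries with *Alb* at or over 250 CPM, open points those under it, and bars show mean ± SD (n = 7); for *Acly* every Activity Reduction point lies below every Active point, and for *Fasn* and *Scd1* an open Active point is the lowest of its panel.

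In edgeR's quasi-likelihood test, adjusted over all genes tested by the Benjamini-Hochberg method, 0 members passed an adjusted p-value under 0.05 with a log2 fold change over 0.25 in any of the 3 comparisons. Over all 16129 genes, the share called was 0% for Active against Inactive, 0.0124% for Activity Reduction against Inactive and 0% for Activity Reduction against Active, although 1754, 1247 and 2149 genes, and 4, 0 and 6 members, had an unadjusted p-value under 0.05. The smallest adjusted p-values of members, from the same edgeR test, were 0.159 for Active against Inactive and 0.075 for Activity Reduction against Active, both for *Acly*. With DESeq2, *Acly* (log2 fold change 0.53, adjusted p = 0.010) and *Elovl6* (1.11, adjusted p = 0.0211) were called for Active against Inactive, beside 0.199% of 28675 genes. DESeq2 also called both for Activity Reduction against Active, *Acly* (-0.58, adjusted p = 0.0013) and *Elovl6* (-1.09, adjusted p = 0.015), beside 0.408% of genes. It called 0 members for Activity Reduction against Inactive, giving no adjusted p-value for *Elovl6*, and 0.0802% of genes. These contrasts are the ones used to choose members, so nothing is read from the counts.

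The median log2 fold change of the 10 members was 0.30 for Active against Inactive and -0.33 for Activity Reduction against Active, against medians of 0.005 and -0.0006 over all genes tested. For Activity Reduction against Inactive it was -0.02, with values from -0.13 (*Fasn*) to 0.04 (*Srebf1*). Standard errors there were 0.415 for *Scd1*, 0.345 for *Fasn* and 0.292 for *Elovl6*, so the values of these genes are loosely bounded. The comparisons share mice, the Active group being in both of the first pair, so their opposite signs are not separate observations. Active replicate 3 carried a part of the differences. Without it the log2 fold change for Active against Inactive was 0.67 for *Fasn* and 0.75 for *Scd1*, against 0.96 and 1.04 with it. For *Elovl6* and *Acly* it was 0.92 and 0.44, against 1.11 and 0.54.

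Within the 13 libraries with *Alb* under 250 CPM, *Acly* had a log2 fold change of 0.37 and *Elovl6* one of 0.65 for Active against Inactive, with 2 Active mice against 6 Inactive mice. *Acly* was at 18.2 and 23.4 CPM in those 2 Active mice and between 14.7 and 18.2 CPM in the 6 Inactive mice, and *Elovl6* was at 1.08 and 2.67 CPM against 0.902 to 1.43 CPM. The same log2 fold change was 0.25 for *Fasn* and 0.34 for *Scd1*, and the 2 Active mice stood on either side of all 6 Inactive mice for both genes, at 10.2 and 36.1 CPM of *Fasn* and at 17.9 and 166 CPM of *Scd1*. It was 0.0039 for *Acaca*, 0.03 for *Elovl5*, -0.18 for *Srebf1* and -0.12 for *Me1*, whose 2 Active mice were both below all 6 Inactive mice. For *Scd2* it was larger than in all libraries, 0.55 against 0.37, with 26.1 CPM in Active replicate 7 and 9.65 CPM in Active replicate 6. Without Active replicate 7 the value of *Scd2* in all libraries was 0.18. How many of all genes tested have both Active mice outside the range of the Inactive mice was not computed. In this smaller fit edgeR's adjusted p-values of members were between 0.776 and 0.998 for this comparison. Its liver marker sums did not separate the groups, ranging from 233 to 324.8 CPM in the Inactive, from 220 to 293 in the Active and from 184 to 363 in the Activity Reduction mice.

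When all 21 libraries were kept and the albumin division was added to the model, the log2 fold change for Active against Inactive was 0.39 for *Acly*, 0.66 for *Elovl6*, 0.57 for *Fasn* and *Scd1*, 0.52 for *Scd2*, 0.14 for *Acaca* and 0.01 for *Elovl5*. For Activity Reduction against Active it was -0.46 for *Acly*, -0.69 for *Elovl6*, -0.76 for *Fasn* and -0.75 for *Scd1*. The smallest of the members' adjusted p-values in this edgeR fit were 0.428 and 0.145. In the 13 libraries, with 5 Activity Reduction mice against 2 Active mice, the log2 fold change was -0.37 for *Acly*, -0.45 for *Elovl6*, -0.32 for *Fasn* and -0.44 for *Scd1*, with edgeR's adjusted p-values of members from 0.981 to 0.987. Both Active mice were above all 5 Activity Reduction mice for *Acly*, at 18.2 and 23.4 against 15.2 to 17.7 CPM. The share of all genes tested that separate in this way was not computed. *Acly* was chosen by this contrast, so nothing is read from the separation.

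**Figure D3:**
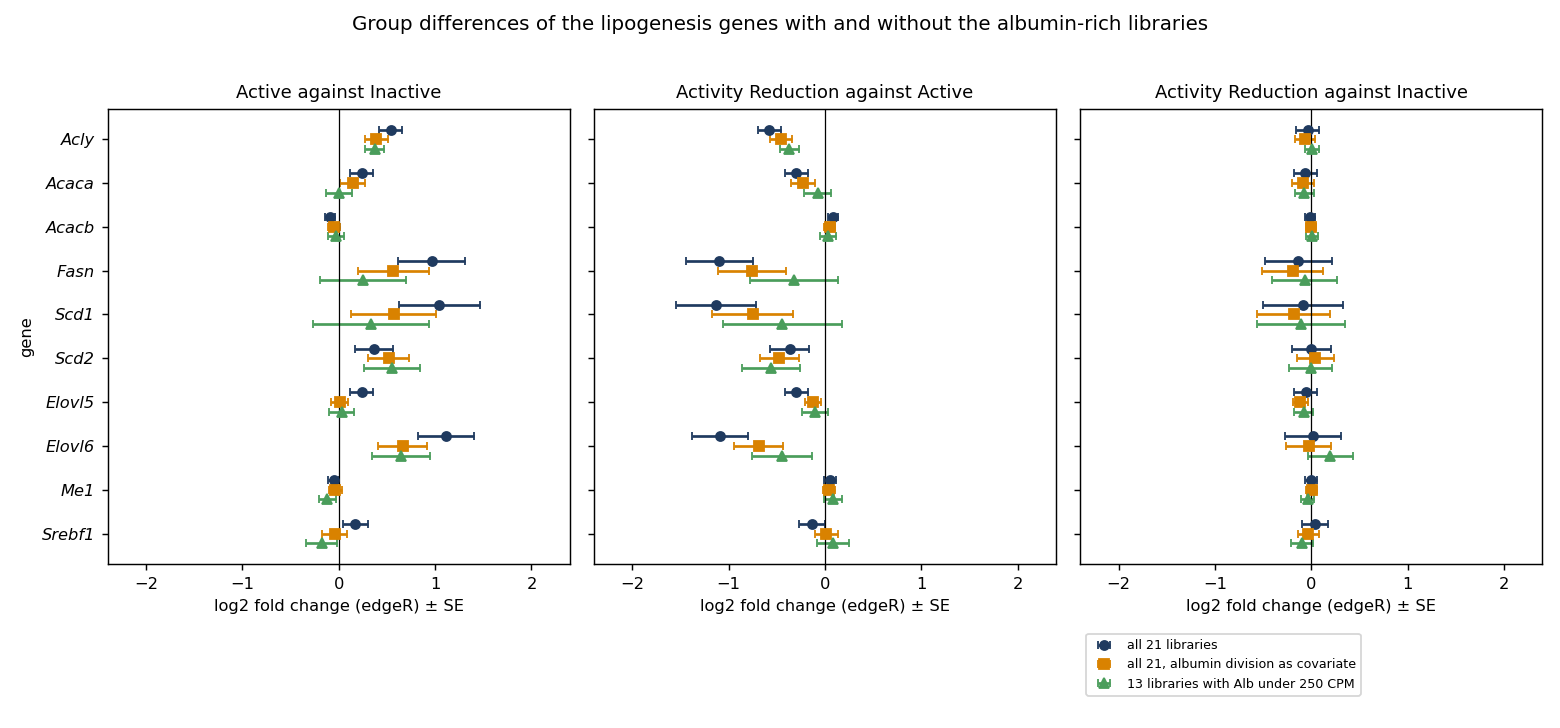
Log2 fold change (edgeR) of each gene with its standard error, for the 3 comparisons of groups, in all 21 libraries, with the albumin division as a covariate, and in the 13 libraries with *Alb* under 250 CPM. For *Fasn* and *Scd1* the Active against Inactive values go from 0.96 and 1.04 to 0.25 and 0.34 in the 13 libraries, and for Activity Reduction against Inactive all members lie between -0.13 and 0.04 in the 21 libraries.

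The albumin division itself was also fitted, with training group in the model. It is a property of the libraries read from a transcript and not a study group. Among members, *Elovl5* (log2 fold change 0.40, SE 0.0762) and *Elovl6* (0.82, SE 0.217) were higher in the libraries with more albumin transcripts, at adjusted p = 0.000807 and 0.0242 (edgeR, Benjamini-Hochberg), while 4.2% of all genes tested, 651 higher and 26 lower, were called. *Elovl5* lay between 9.09 and 12.2 CPM in the 8 libraries and between 7.01 and 9.85 CPM in the other 13. *Elovl6* lay between 1.20 and 5.48 CPM in the 8 libraries and between 0.902 and 2.67 CPM in the other 13, and its call was lost without Inactive replicate 1, without Active replicate 6 and without Activity Reduction replicate 2 (edgeR adjusted p of 0.249, 0.0973 and 0.0646). *Srebf1*, at 0.35 (SE 0.109), had an adjusted p-value of 0.077 with edgeR and 0.0357 with DESeq2. *Acly* (0.27), *Fasn* (0.63) and *Scd1* (0.76) were not called, with adjusted p-values of 0.20, 0.417 and 0.414 from the same edgeR test, and *Scd2* was at -0.27. *Alb* defines the division, and the other 17 liver markers were all called, with log2 fold changes from 2.25 to 2.96, larger than those of *Elovl5* and *Elovl6*.

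Across libraries, with group means removed from log2 CPM, 5 of the enzymes, grouped here after their values were seen, varied together. Pearson's r between *Fasn* and *Scd1* was 0.93, between *Acly* and *Fasn* 0.86, and between *Acly* and *Elovl6* 0.80 over the 21 libraries. All 10 pairs among *Acly*, *Acaca*, *Fasn*, *Scd1* and *Elovl6* had r between 0.65 and 0.93, with a median of 0.77. Over all 45 pairs of members the median was 0.43, with 16 pairs over 0.5 and 11 negative, and *Scd2* had r between 0.25 and 0.51 with the 5 enzymes. *Srebf1* had a median r of 0.53 with the other members, up to 0.68 with *Acaca*. *Acacb* was negatively related to each of the other 9, from -0.12 with *Scd2* to -0.64 with *Srebf1*, and *Me1* stayed at or under 0.49 with all. The libraries share their albumin levels and scaling, so these values are a description.

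**Figure D4:**
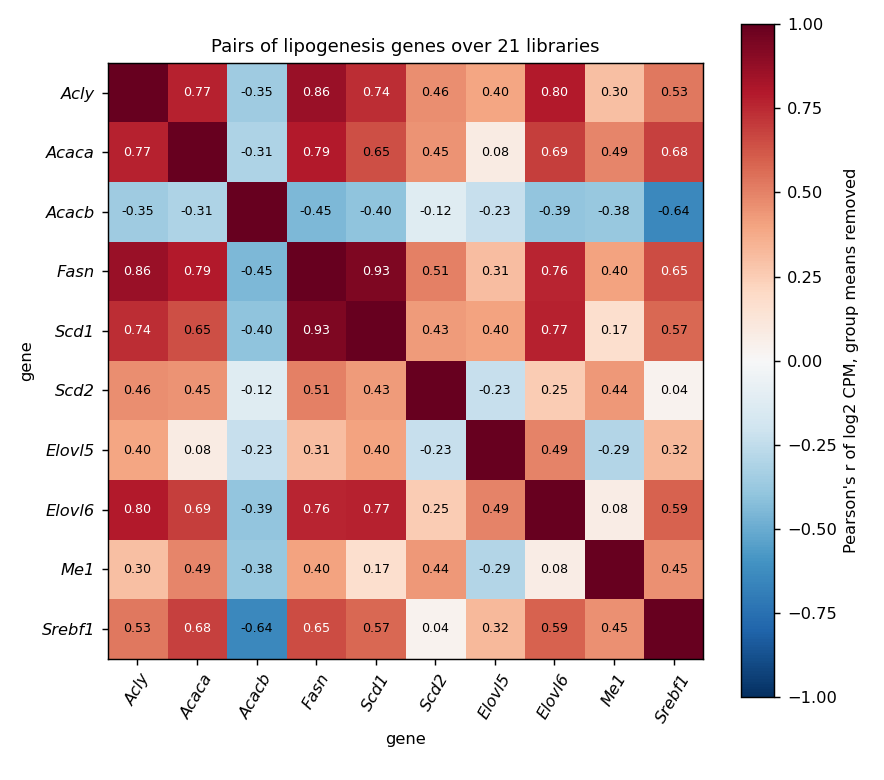
Pearson's r between each pair of the 10 genes over 21 libraries, from log2 CPM with the mean of each training group removed; red is positive and blue negative. *Fasn* and *Scd1* reach 0.93, and the row of *Acacb* is negative throughout.

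In the 13 libraries with fewer albumin transcripts r was computed with group means kept. Group differences are therefore part of it, and it is not the same measure as over the 21 libraries. The same 10 pairs were positive there, with r between 0.41 and 0.91 and a median of 0.52. The median of all 45 pairs was 0.17 and 16 were negative. *Fasn* and *Scd1* had r of 0.91, *Acly* was closest to *Scd2* (0.80) and *Elovl6* (0.70), and *Acacb* and *Srebf1* stood at -0.53. Of the 9 pairs with *Acacb*, 7 were negative there. *Srebf1* had a median r of 0.195 with the other members, with 4 of 9 pairs negative, and *Me1* one of 0.12, also with 4 of 9 negative. The r with the mean z-score of the 10 genes kept group means in both sets of libraries. Each gene is itself part of that mean, which raises its r. *Elovl5* had 0.12 in the 13 libraries, against 0.53 in all 21 libraries, and *Acacb* had -0.04, against -0.49.

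Adipocytes, which lie between muscle fibers, express many lipogenic genes strongly, and the 10 adipocyte markers were present in every library. Their sum was between 101 and 195 CPM in the Inactive, 107 and 202 CPM in the Active and 99.3 and 154 CPM in the Activity Reduction group. *Adipoq*, which encodes adiponectin, was between 0.832 and 11.6 CPM, and *Fabp4*, which capillary endothelium also expresses, held most of the sum, between 75.7 and 101 CPM.

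*Scd1* followed the adipocyte sum most closely. The relations within the 13 and within the 8 libraries kept group means, and their permutations took no account of training group. In the 13 libraries with fewer albumin transcripts, Pearson's r of log2 values was 0.904 (two-sided permutation test, p = 5e-05, adjusted p = 0.0020 over the 40 relations computed), Spearman's rho was 0.934 (permutation test, adjusted p = 0.0016), and r was 0.899 without the 2 libraries farthest from the median sum. *Fasn* had r of 0.806 (permutation test, p = 0.00125, adjusted p = 0.025) and 0.753 without those 2 libraries, while its rho of 0.758 missed the threshold (permutation test, adjusted p = 0.0608). *Acly* (0.407), *Acaca* (0.32), *Elovl6* (0.296), *Elovl5* (0.169) and *Srebf1* (0.171) did not pass in these 13 libraries, with adjusted permutation p-values between 0.388 and 0.682.

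In the 8 libraries with more albumin transcripts, *Scd1* (0.869), *Fasn* (0.862) and *Acly* (0.836) were related to the adipocyte sum, with adjusted p-values of 0.0327, 0.0327 and 0.0357 for Pearson's r (two-sided exact permutation test, p = 0.00327, 0.00313 and 0.00446). Spearman's rho was 0.833, 0.833 and 0.81 and did not pass (exact permutation test, adjusted p = 0.123, 0.123 and 0.145). The 3 relations rested on the 2 libraries farthest from the median sum, without which r was 0.476, 0.455 and 0.306. With the liver marker sum, 0 members were related in the 13 libraries, and *Me1* was negatively related in the 8 (r = -0.771, exact permutation test, p = 0.00553, adjusted p = 0.0369, and -0.774 without the 2 farthest libraries), with a rho of -0.905 that missed the threshold (exact permutation test, adjusted p = 0.0608). Over all 21 libraries with group means removed, the liver sum had r of 0.836 with *Elovl5* and 0.623 with *Elovl6*. This sum separates the 8 from the 13 libraries, so these values are not separate from the albumin division. Within the 13 and the 8 libraries r was 0.319 and 0.55 for *Elovl5* and 0.065 and -0.074 for *Elovl6*. With group means removed, the adipocyte sum had r of 0.824 with *Scd1*, 0.76 with *Fasn* and 0.554 with *Acly* over the 21 libraries. Without the 2 farthest libraries these were 0.795, 0.671 and 0.396.

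**Figure D5:**
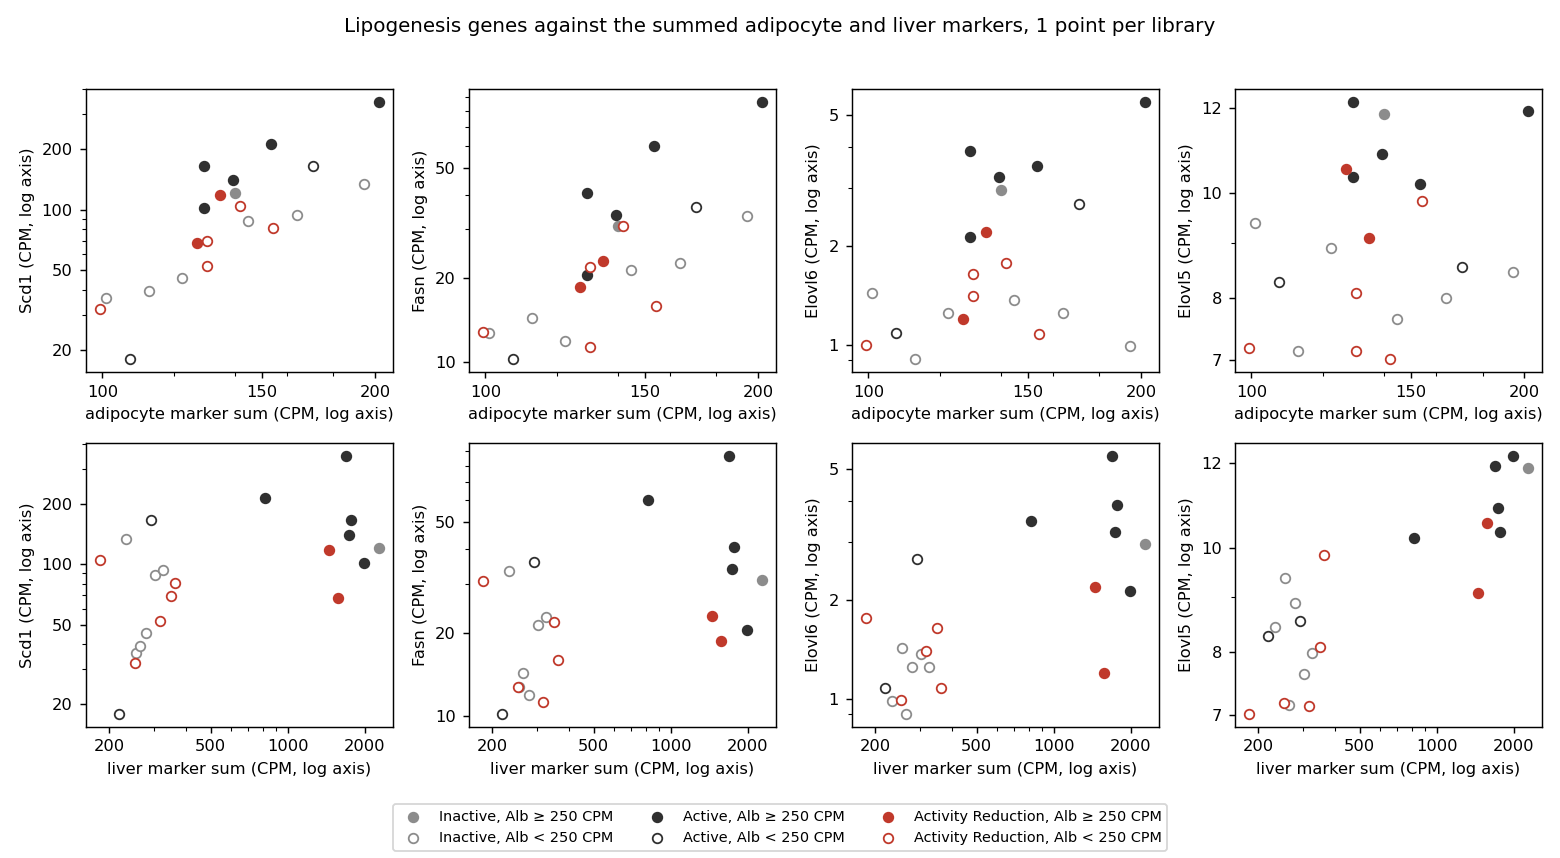
Expression of *Scd1*, *Fasn*, *Elovl6* and *Elovl5* (CPM) against the summed adipocyte markers (top) and liver markers (bottom), all on log axes, with 1 point per library and filled points for *Alb* at or over 250 CPM. *Scd1* climbs with the adipocyte sum in open and filled points, and *Elovl5* differs mainly between open and filled points along the liver sum.

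With the adipocyte sum as a covariate in the edgeR model, the log2 fold change for Activity Reduction against Active was -0.57 for *Fasn* and -0.45 for *Scd1*, against -1.10 and -1.13 without it, and -0.47 for *Acly* and -0.87 for *Elovl6*, against -0.58 and -1.09. For Active against Inactive it was 0.73 for *Fasn*, 0.76 for *Scd1*, 0.49 for *Acly* and 0.97 for *Elovl6*. In the same model, 7 of the 10 members were above 0 for Activity Reduction against Inactive, up to 0.31 (SE 0.259) for *Scd1*. All 10 adipocyte markers had a lower mean in the Activity Reduction than in the Active group (median log2 fold change -0.31), and all 18 liver markers did too (median -0.93), of which edgeR and DESeq2 called 0 and edgeR's unadjusted p-value was under 0.05 for 0. For Active against Inactive, 8 of 10 adipocyte markers had a higher mean in the Active group (median 0.17, 0 with an unadjusted p-value under 0.05). All 18 liver markers also had a higher mean there, with log2 fold changes from 0.72 to 1.40, with an unadjusted p-value under 0.05 for 2 and 0 called by edgeR or DESeq2. The part of these transcripts in the group differences of the members was not tested.

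Of 65 other genes around the pathway, in 5 lists, 62 passed the filter and edgeR called 0 of them in any comparison of groups. Unadjusted p-values from edgeR were under 0.05 for 18 of the 62 in Active against Inactive, for 4 in Activity Reduction against Inactive and for 15 in Activity Reduction against Active, beside 1754, 1247 and 2149 of all 16129 genes. DESeq2 called 1, 0 and 0 of them, the 1 being *Acss2*, which makes acetyl-CoA from acetate (edgeR log2 fold change 0.28 for Active against Inactive). The citrate carrier *Slc25a1*, which exports the substrate of *Acly*, had a log2 fold change of 0.84 for Active against Inactive and -0.68 for Activity Reduction against Active, and the 10 genes of citrate, acetyl-CoA and NADPH supply had medians of 0.12 and -0.03. Of the 14 other elongases, desaturases and elongation enzymes, 11 passed the filter, and 10 of these had values above 0 for Active against Inactive. *Elovl2* (1.26, SE 0.644), *Fads2* (0.85, SE 0.424) and *Fads1* (0.66, SE 0.288) were highest and *Elovl7* (-0.63, SE 0.518) lowest. For none of the 62 genes are group differences given with the albumin division in the model. Among 14 regulators of SREBP, LXR and ChREBP the values were small, from -0.20 for *Nr1h3*, which encodes LXRα, to 0.27 for *Insig1*, which retains SREBPs in the endoplasmic reticulum. In the list of sterol genes, 16 of 17 genes had values above 0 for Active against Inactive and 15 of 17 below 0 for Activity Reduction against Active, with medians of 0.13 and -0.12. Both comparisons hold the Active mice, and the share of all genes tested with such signs was not computed. Between libraries with more and fewer albumin transcripts, 14 of these 17 genes had values above 0, with a median of 0.21. The 10 genes of triglyceride synthesis had a median of 0.01 for Active against Inactive, from -0.17 (*Lpin1*) to 0.45 (*Acsl5*).

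Between libraries with more and fewer albumin transcripts, edgeR called 14 of these 62 genes, all higher where albumin was higher, as against 4.2% of all genes tested, of which 651 of 677 were higher. Among them were *Slc25a1* (log2 fold change 0.80), the polyunsaturated chain enzymes *Elovl2* (2.73), *Fads2* (1.72) and *Fads1* (1.12), *Hsd17b12* (0.31), the SREBP regulator *Insig1* (0.49), the lipogenic cofactor *Thrsp* (0.54), the sterol genes *Msmo1* (0.76), *Sqle* (0.61) and *Cyp51* (0.33), and *Acsl5* (0.75), which activates fatty acids. *Elovl2*, at 2.73, was within the range of the liver markers. Of the adipocyte markers, *Cebpa*, also a liver transcription factor, was called (0.98), and the other 9 were not. *Srebf2*, *Sc5d* and the muscle marker *Mb* had adjusted p-values under 0.05 but log2 fold changes under the size needed for a call (0.23, 0.22 and -0.19), and the other 7 muscle fiber markers lay between -0.15 and 0.02.

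The gene whose log2 CPM was most like the mean z-score of the 10 members was *Tkt*, which encodes transketolase of the pentose phosphate pathway. Its r was 0.945 over 21 libraries and 0.795 over the 13 libraries with fewer albumin transcripts. All r here kept group means, unlike those of the member pairs over 21 libraries. Group differences, by which members were chosen, are therefore part of them. *Kdsr* (0.836), *Pml* (0.796), *Nkd1* (0.784), *Mrap* (0.775), *Slc25a1* (0.774), *Erg28* (0.771), *Tmem45b* (0.752) and *Tlcd1* (0.751) were also among the 10 most alike. Over the 13 libraries alone the 10 most alike were *Chst1* (0.892), *Gng2* (0.884), *Pms2* (0.876), *Sptbn5* (0.846), *Osgin2* (0.828), *Smad2* (0.825), *Gm23205* (0.823), *Kank4* (0.812), *D10Wsu102e* (0.805) and *Pmp2* (0.803). These lists shared 0 genes, and r of *Chst1* over 21 libraries was 0.357.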

How the data were processed

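Paired-end reads were trimmed (fastp), aligned to the mouse genome GRCm39 (RNA STAR) and assigned to genes (featureCounts) by the authors. Versions, the annotation and the strand setting are not given in the sources used here. The deposited values are raw read counts for 40853 genes in 21 libraries. A further table, called normalized by its name, was identical and was left out. Columns were matched to mice by the sample descriptions.

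Counts were fitted with edgeR 4.0.16 (R 4.3.3; filterByExpr, TMM, quasi-likelihood test, Benjamini-Hochberg) in 1 model of the 3 groups. Genes were called at an adjusted p-value under 0.05 and a log2 fold change over 0.25 in either direction, the study stating a fold change over 0.25, read here as log2. The authors used DESeq2, run here (1.42.0) as an alternative, with RLE size factors, no filter, covariates, a replicate block and each library left out in turn. Relations with marker sums used log2 CPM and permutation tests (100000 resamples, exact for 8 libraries). Group means were removed only where this is stated. Replicate numbers did not pair mice. P-values from edgeR and DESeq2 cover the spread between mice, with 1 library per mouse.

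The members, the gene lists and the albumin division were chosen with earlier results of these data known. The text names all members, each gene of the other lists that passed a test (and, where none did, the highest and lowest) and the 10 genes most like the members' mean z-score in each set of libraries. Some further genes of these lists were named after their values were seen. A few genes that this rule names are not reported here. Lengths and positions came from GENCODE M39.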

Additional observations from a re-analysis of the deposited data

Results flagged for a closer look

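Among the 30 combinations of a member and a training group, 3 held a library far from the other 6, by the gap to its nearest neighbour over the range of the group (Dixon's test). Chance flags about 1 group in 20. *Scd2* in Inactive replicate 7 was at 19.0 CPM, above the next Inactive library at 12.9 CPM (gap over range 0.63). *Elovl6* in Inactive replicate 1 was at 2.96 CPM, above the next at 1.43 CPM (0.743). *Me1* in the same library was at 201 CPM, below the next at 225 CPM (0.584). Inactive replicate 1 was the Inactive library with much albumin transcript, with a liver marker sum of 2279 CPM, and Inactive replicate 7 had the highest *Scd1* and *Fasn* of the Inactive group and an adipocyte marker sum of 195 CPM. The part of either in these levels was not tested.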

How the results depend on the processing

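Over all settings, the log2 fold changes of members kept their sign in all but 2 of 290 values for Active against Inactive and all but 2 of 290 for Activity Reduction against Active, these 4 being *Srebf1* with the albumin division as a covariate and in the 13 libraries. Most of the 29 settings only left out 1 library, so signs had little room to change. In these comparisons 15 and 13 values moved by at least 1 SE, with the albumin or adipocyte covariate or in the 13 libraries. For Activity Reduction against Inactive, where values lay near 0, 50 of 290 had the other sign. DESeq2 called 57, 23 and 117 genes for Active against Inactive, Activity Reduction against Inactive and Activity Reduction against Active, and 2, 0 and 2 members, where edgeR called 0, 2 and 0 genes. A fit of only the 14 libraries compared called 3 genes for Active against Inactive. For Activity Reduction against Inactive, 0 genes were called with RLE size factors, in the 13 libraries, with the adipocyte covariate and in only the 14 libraries compared, and 1 with the albumin covariate. RLE size factors called 1 gene for Activity Reduction against Active. With the replicate block 4 genes were called for Activity Reduction against Inactive and 0 members in any comparison. Replicate numbers did not pair the mice (r of same-numbered deviations from -0.207 to 0.60, 8 of 21 pairs over 0.1, and 5 of 21 libraries closest to their own number). The libraries numbered 1, with r from 0.436 to 0.60, all had more albumin transcripts. Leaving out 1 library gave 0 to 1, 0 to 6 and 0 to 9 genes in the 3 comparisons and 0 members. For the albumin division it gave 632 to 702 genes and 1 to 3 members, 1 without Activity Reduction replicate 2 or Active replicate 6. Its value for *Me1* ranged from -0.053 to 0.026 and had the other sign only without Inactive replicate 1. A division at 500 CPM of *Alb* called 1 member, *Elovl5*. Of the 40 relations with marker sums, 2 passed with CPM without TMM and 2 with the adipocyte sum without *Fabp4*, *Scd1* and *Fasn* in the 13 libraries both times, against 6. The r of *Me1* with the adipocyte sum in the 13 libraries, -0.0034, was 0.0296 and 0.0058 under these settings. In all of these the cause was not tested. With 2 Active mice among the 13 libraries, differences there are poorly bounded.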
